A study of Mus musculus with 20 samples.

Results

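The step from 2 h to 6 h of insulin-like growth factor 1 (IGF1) was examined in tenocytes, the fibroblast-like cells that make tendon, by comparing the 4 libraries of 6 h with the 4 libraries of 2 h. These 8 libraries, chosen by the labelled time of treatment, are part of 20 RNA sequencing libraries at 0, 1, 2, 6 and 24 h, 4 at each time. The cells came from tail tendons of adult C57Bl/6 mice, and the labels give no cytokine treatment for the 0 h libraries and 100 ng/mL recombinant IGF1 for the libraries of 1, 2, 6 and 24 h. The 2 h and 6 h groups thus differ in time alone. All groups share the wild type genotype, strain and tissue. No untreated libraries matched for time were used here, so hours in culture and hours of IGF1 cannot be told apart. Of 29986 genes in the deposited count table, 14420 were expressed highly enough to be tested. The questions were which early changes had ended by 6 h and which changes began after 2 h. An early change is a difference between 1 h and 0 h, which shares no library with the step.

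IGF1 binds its receptor tyrosine kinase Igf1r, which phosphorylates the adaptors Irs1 and Irs2 and activates the PI3K to AKT to mTORC1 branch and the RAS to ERK branch. ERK switches on immediate early genes, most of which encode transcription factors or short-lived regulators and need no new protein for their induction. AKT phosphorylates FoxO transcription factors and holds them out of the nucleus, so that FoxO target genes fall, while mTORC1 raises the activity of Atf4, Hif1a and the sterol regulators. Genes that depend on newly made proteins follow later and form the secondary response. In tendon, IGF1 is known as a growth and matrix stimulus for tenocytes.

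Total counts of the 8 libraries lay between 17017386 and 20857193. Levels are given as CPM (read counts scaled to a common library total), scaled between libraries by the trimmed mean of M-values, and changes as log2 fold changes ± standard error (SE). A gene was called at an adjusted p under 0.05. The labels do not say whether replicates were separate mice or separate cultures, so p-values measure the spread between replicate libraries, which may be technical. That spread was estimated from all 20 libraries together, not from the 8 of 2 h and 6 h alone. Tenocyte markers were abundant: Scx, a transcription factor of tendon cells, averaged 4354 CPM at 2 h, Tnmd, a tendon membrane glycoprotein, 202.7 CPM, and Col1a1, a chain of type I collagen, 22278 CPM. Several 2 h libraries stood apart. The 16 tested markers of macrophages (of 17 listed) had mean log2 CPM of 4.31, 5.17, 3.61 and 3.71 in 2 h replicates 1 to 4, against 2.94 to 3.72 at 6 h and 2.96 to 3.13 at 0 h. The 9 tested Schwann cell markers stood at 3.14 in 2 h replicate 2 and at most 1.55 in the 6 h libraries. In 2 h replicate 4 the 51 cytosolic ribosomal protein genes averaged 8.47 log2 CPM, against at most 8.04 in the other 2 h and 6 h libraries. The deviation of 2 h replicate 4 from the other 2 h libraries had a Spearman correlation of -0.626 with exonic length across 11329 genes, and those of the 6 h libraries lay between -0.20 and 0.23. In bulk samples, fewer cells of a type and less RNA per cell cannot be told apart. Results that rest on these 2 h libraries are given with and without them. Leaving out 2 h replicates 1 and 2 makes 2 h replicate 4 weigh more: the step's Spearman correlation with exonic length across genes was 0.125 with all libraries, 0.304 without 2 h replicates 1 and 2, and -0.080 without 2 h replicate 4.

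**Figure D1:**
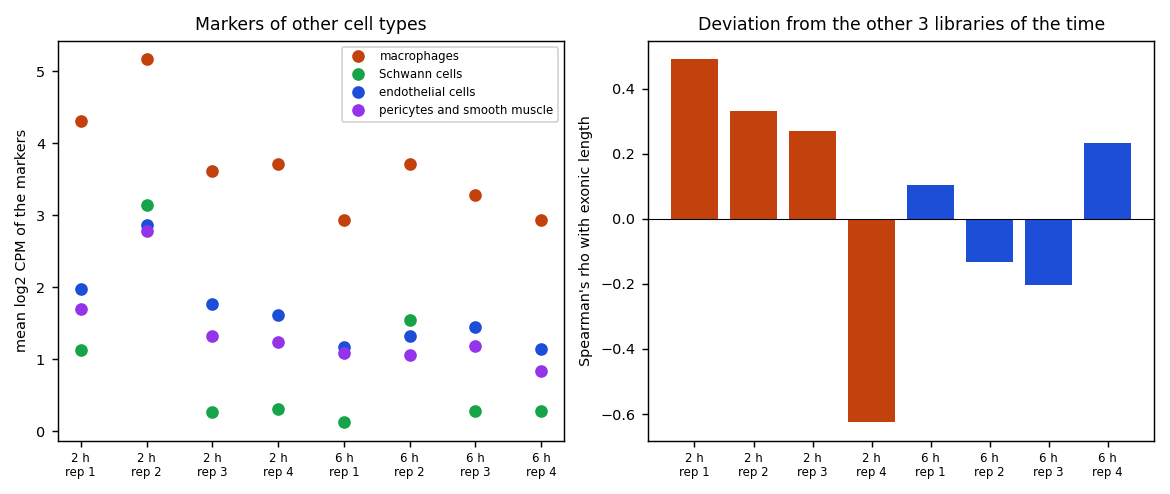
Left, mean log2 CPM of the tested markers of 4 other cell types in each library of 2 h and 6 h. Right, for each library, Spearman's rho across genes between exonic length and the log2 difference of that library from the mean of the other 3 of its time. The macrophage markers were highest in 2 h replicates 1 and 2, and 2 h replicate 4 was the library with a rho of -0.626.

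Between 2 h and 6 h, 3944 genes changed (27.4% of those tested): 1964 rose (13.6%) and 1980 fell (13.7%). At least a 2-fold change was called for 118 rising genes (0.818%) and 377 falling genes (2.61%), so the large changes were mostly falls. The 4 libraries of 6 h lay wholly above those of 2 h for 1879 genes (13.0%) and wholly below for 1589 (11.0%). With the spread estimated from only the 8 libraries of 2 h and 6 h, 1307 genes rose and 1262 fell. The count of genes lower by at least 2-fold was 250 when 2 h replicate 2 was left out. It was 226 when 2 h replicates 1 and 2 were, with 177 genes then at least 2-fold higher. The largest rises among named genes that did not overlap were those of Car12, Runx1t1, Slitrk6, Dtl, Cdc6 and Klf15, and the largest falls were those of Fgf18, Egr3, Cdo1, Nr4a3 and Atp6v0d2. Their levels are described with their groups.

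Many early changes turned back in the step. At 1 h against 0 h, 1533 genes (10.6%) had changed: 973 had risen (6.75% of those tested) and 560 had fallen (3.88%). Of the 973 early risers, 380 (39.1%) fell between 2 h and 6 h against 13.7% of all genes, 74 (7.61%) rose further against 13.6%, and 519 were not called. Of the 560 early fallers, 225 (40.2%) rose in the step, 33 (5.89%) fell further, and 302 were not called. The median step was -0.16 for early risers, 0.23 for early fallers and -0.01 for the 12887 genes with no early call. The early rises that ended make up 19.2% of all genes that fell in the step, and the early falls that ended make up 11.5% of all that rose, so most step calls were not reversals of a change seen at 1 h. Leaving out 1 library at a time gave 297 to 460 early rises that ended and 189 to 302 early falls that ended. Without 1 h replicate 4, where macrophage markers were highest at 1 h, they numbered 356 and 190.

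**Figure D2:**
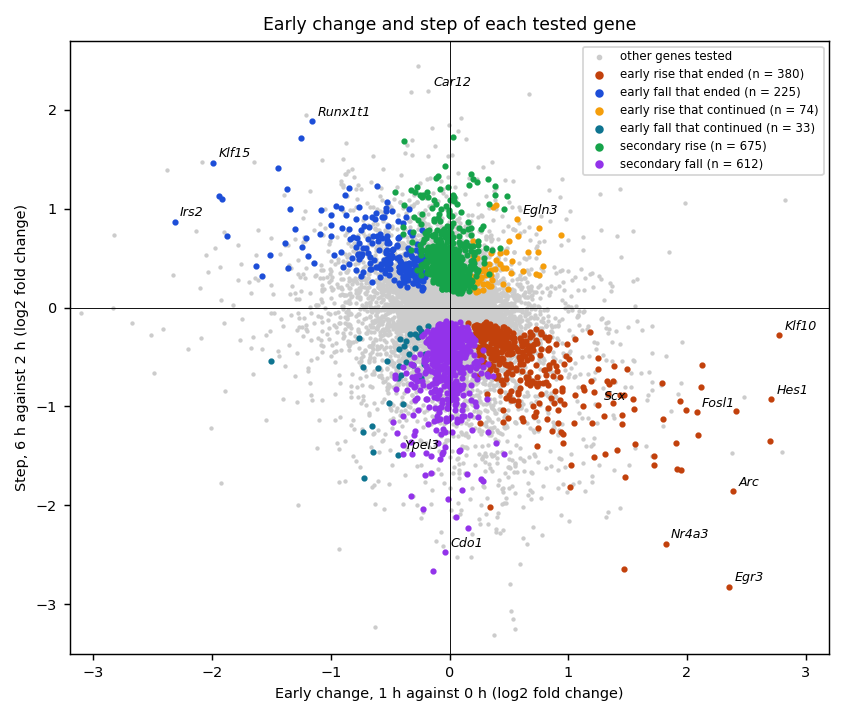
Each point is a tested gene, with its log2 fold change from 0 h to 1 h on the x axis and from 2 h to 6 h on the y axis, coloured by class. Early rises that ended lie at the lower right and early falls that ended at the upper left, and secondary changes lie near 0 on the x axis; 3 genes fall outside the axes.

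Ending meant a return toward the starting level for most, but not for every gene. Against 0 h, 40.2% of all genes differed at 6 h, 20.6% higher and 19.6% lower. Of the 380 early rises that ended, 167 were still above 0 h at 6 h, 179 no longer differed by the test and 34 stood below it. Their median difference from 0 h from 1 h through 2 h and 6 h to 24 h was 0.50, 0.64, 0.18 and -0.06. Of the 225 early falls that ended, 113 were still below 0 h at 6 h, 104 were not called and 8 stood above it, with medians of -0.50, -0.77, -0.25 and -0.04 at 1, 2, 6 and 24 h. Risers were thus closer to their starting level at 6 h than fallers in the median, and no test was made of that difference.

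Secondary changes were the largest classes. A secondary rise is a gene with no call and a log2 difference under 0.5 in size at both 1 h and 2 h, called higher at 6 h against both 2 h and 0 h. There were 675 such rises and 612 such falls. A further 478 rises and 487 falls that were first called at 2 h against 0 h (a contrast with 37.7% of all genes called, 20.2% higher and 17.5% lower) turned back in the step, and 245 rises and 254 falls first called at 2 h went further. These last classes and the secondary ones use contrasts that share the 2 h or 6 h libraries with the step, so their sizes are a description. The median secondary rise was 0.41 above 0 h at 6 h and 0.16 at 24 h, and the median secondary fall was -0.50 and -0.23. Without 2 h replicate 2 the rises first called at 2 h that turned back numbered 296. Early rises that continued numbered 46, 47 and 49 without 1 h replicate 3, 0 h replicate 1 and 0 h replicate 3, and 166 without 2 h replicate 4. Early falls that continued numbered 83 without 2 h replicate 4, and they numbered 61 when 2 h replicates 1 and 2 were left out.

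**Figure D3:**
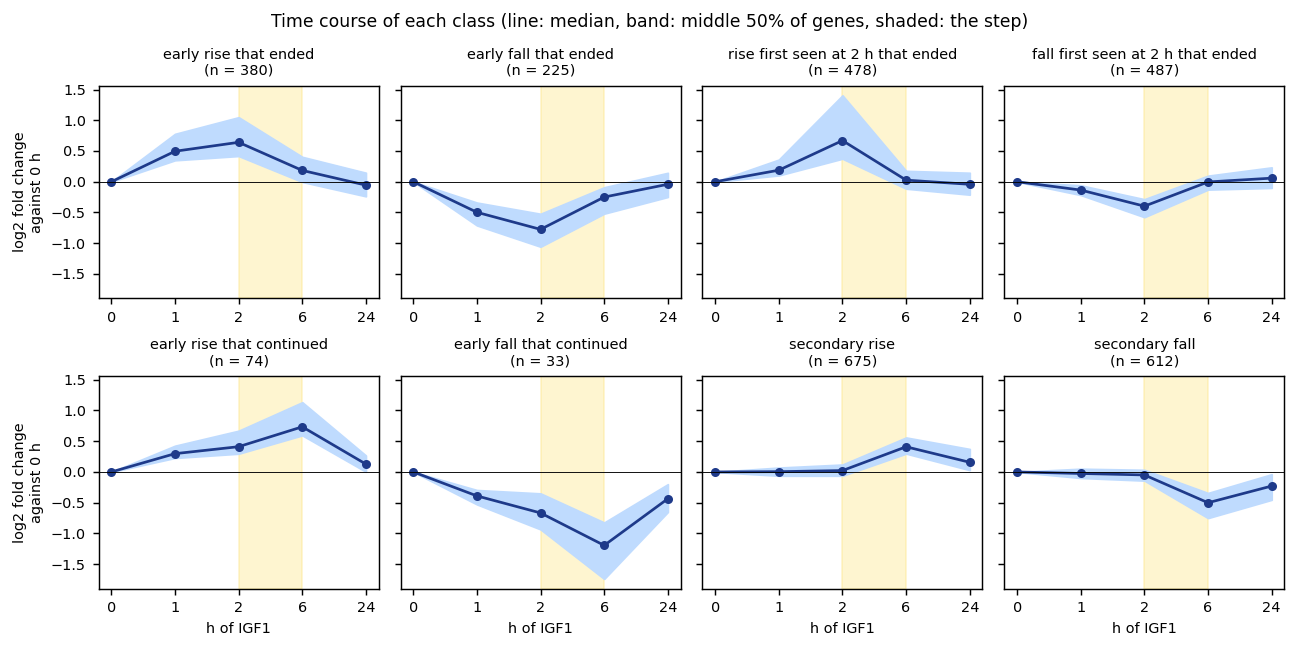
Time course of 8 classes of genes, as the median (line) and middle 50% (band) of the log2 fold change against 0 h at 0, 1, 2, 6 and 24 h, with the step shaded. Early changes that ended peak at 2 h in the median, and secondary changes leave 0 between 2 h and 6 h by definition of the class.

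Promoters of genes from several groups are shown, picked because each holds the recognition sequence of a factor known for such genes, whether or not most members of its list moved one way. They do not show how common the motif is in their group. Stretches are written 5′ to 3′ on the strand of the gene, from the RefSeq promoter table of build GRCm38.p6 (250 bases before to 50 after a start site), with the motif in capitals. Egr2, Bbc3 and Errfi1 have 5, 3 and 2 promoters there, at alternative start sites, and an entry that holds the motif was chosen. Egr2, with a CArG box (CC, 6 A or T, GG; the serum response factor element), lies on the plus strand at chr10:67537456-67537525. Errfi1, with a cAMP response element (TGACGTCA), is on the plus strand at chr4:150854985-150855054. Cxcl1, with the NF-kB site shown in capitals, is on the plus strand at chr5:90891145-90891214. Hmgcs1, with a sterol element (TCACNCCAC), is on the plus strand at chr13:119690186-119690255. Bbc3, with a FoxO site (GTAAACA) read on the opposite strand, is on the plus strand at chr7:16310066-16310135.
Egr2: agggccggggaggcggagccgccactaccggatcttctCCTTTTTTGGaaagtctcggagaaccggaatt
Errfi1: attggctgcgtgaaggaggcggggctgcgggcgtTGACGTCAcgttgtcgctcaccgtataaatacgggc
Cxcl1: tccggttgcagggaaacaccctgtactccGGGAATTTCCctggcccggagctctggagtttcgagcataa
Hmgcs1: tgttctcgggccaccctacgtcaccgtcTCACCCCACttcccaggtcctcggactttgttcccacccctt
Bbc3: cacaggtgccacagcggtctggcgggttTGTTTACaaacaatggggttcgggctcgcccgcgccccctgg

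The second set is of genes that rose in the step. Bnip3, with 2 overlapping hypoxia elements (ACGTG) that together form an E-box (CACGTG), is on the minus strand at chr7:138909577-138909646. Slc16a3, with 2 separate hypoxia elements, is on the plus strand at chr11:120948997-120949066. Cdc6 is on the plus strand at chr11:98907981-98908050, with an E2F site (TTTCCCGC) read on the opposite strand, and Hells is on the plus strand at chr19:38930895-38930964 with the same site. Slc1a4, with an Atf4 element (TGATGCAA) read on the opposite strand, is on the minus strand at chr11:20332710-20332773.
Bnip3: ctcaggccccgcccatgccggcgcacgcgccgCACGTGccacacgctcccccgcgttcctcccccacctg
Slc16a3: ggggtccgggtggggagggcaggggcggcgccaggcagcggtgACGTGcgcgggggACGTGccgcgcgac
Cdc6: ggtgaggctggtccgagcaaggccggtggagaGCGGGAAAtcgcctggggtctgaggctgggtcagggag
Hells: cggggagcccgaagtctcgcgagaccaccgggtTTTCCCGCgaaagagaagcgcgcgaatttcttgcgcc
Slc1a4: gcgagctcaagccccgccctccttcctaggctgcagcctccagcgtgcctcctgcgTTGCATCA

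Both strands were searched in the 9866 of 14420 tested genes that matched a promoter. A gene with several promoters counted as holding a motif when any of them did. Several lists hold known targets of a factor, so a high share of its motif in them is partly built in. The Atf4 element was in 10 of 30 promoters of the list of Atf4 targets, amino acid transport and tRNA charging (33.3%), against 0.730% of all. By class, it was in 0.579% of secondary rises, 2.94% of early falls that ended and 0% of early rises that continued. The E2F site was in 7 of 38 promoters of G1 and S phase genes (18.4%) and in 3.475% of secondary rises, against 2.28%. The CArG box was in 3 of 20 promoters of immediate early genes (15%), against 1.61%. By class, it was in 2.83% of early rises that ended and in 3.52% of secondary falls. The hypoxia element, a short sequence that overlaps the E-box, was in 20 of 28 promoters of the glycolysis and hypoxia list (71.4%), against 29.2%. It was also in 47.5% of early rises that continued, 47.4% of G1 and S phase genes, 43.5% of endoplasmic reticulum chaperones and 39.2% of secondary rises. The FoxO site was in 5 of 24 promoters of genes listed as lowered when AKT keeps FoxO out of the nucleus (20.8%), against 3.17% of all. It was in 15 of 170 early falls that ended (8.82%) and in 14 of 187 early falls with no call in the step (7.49%). The sterol element was in 1 of 18 promoters of cholesterol genes, that of Hmgcs1. The cAMP response element was in 2.83% of early rises that ended and 10% of immediate early genes, against 3.61% of all. The NF-kB site was in 1.41% of early rises that ended and 0% of immediate early genes, against 0.466% of all. Neither was counted for the ERK feedback or chemokine lists. These matches describe the sequences and do not show that a factor was bound.

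The immediate early transcription factors fell as a group. In this and all later lists, counts are to be read beside 13.6% of all tested genes higher and 13.7% lower. Of 28 members tested, 19 fell, 1 rose and 8 did not pass, with a median of -0.46 against -0.01 for all genes; 18 of the 28 had risen at 1 h. Egr3, a zinc finger factor of the early growth response family, stood at 5.74, 7.19, 8.35 and 7.11 CPM in the 2 h libraries and at 1.04, 0.523, 1.51 and 0.892 CPM at 6 h. The groups were far apart, and at 6 h Egr3 was also below its 0 h mean of 2.38 CPM. The step was -2.82 ± 0.24 (adjusted p = 1.44e-09, edgeR quasi-likelihood test). The orphan nuclear receptors Nr4a3 and Nr4a1 behaved alike, with steps of -2.39 ± 0.24 and -1.71 ± 0.13, and both ended below 0 h (log2 differences of -1.21 and -1.70). Their means at 6 h were 1.38 ± 0.524 and 3.82 ± 0.349 CPM (SD, n = 4), against 3.2 and 12.4 CPM at 0 h.

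Other members came back close to where they began. Arc, a synaptic gene that serves as an immediate early marker, went from 17.7, 11.2, 26.7 and 21.7 CPM at 2 h to 3.85, 5.18, 7.21 and 5.04 CPM at 6 h, with a step of -1.86 ± 0.22, beside a mean of 4.43 CPM at 0 h. Egr2, whose CArG box is shown above and which also belongs to the factors of tendon cells, went from 9.76, 11.9, 8.29 and 7.17 to 2.22, 3.32, 4.84 and 2.78 CPM, with a step of -1.50 ± 0.22 and a 0 h mean of 2.93 CPM. Neither gene had overlapping libraries. Fosl1, the Fos family member that pairs with Jun proteins in AP-1, kept part of its rise: it went from 64.2, 92.9, 81.9 and 73.9 to 40.7, 36.1, 38.9 and 34.4 CPM (step -1.06 ± 0.10), still 1.67 log2 units above 0 h. Of the exonic bases of Fosl1, 57.2% overlap Ccdc85b on the other strand, and the use of strand in counting is not given in the sources used here.

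Timing differed among the early factors. Hes1, a Notch-responsive repressor, had its peak at 1 h, with a mean of 45.3 CPM, and fell through 19.3, 19.7, 21.1 and 24.7 CPM at 2 h to 10.8, 13.0, 9.84 and 10.97 CPM at 6 h (step -0.93 ± 0.12). Klf10, a TGF-beta inducible zinc finger factor, went from 103.6 CPM at 1 h to 36.1 CPM at 2 h, so most of its fall came before the step. Its step of -0.28 ± 0.099 (adjusted p = 0.0353), between overlapping libraries, lost its call when any of 2 h replicate 2 and 6 h replicates 1, 2 and 4 was left out, as well as with 2 h replicates 1 and 2 removed together. Fos and Egr1, the best known genes of the class, had steps of 0.13 and -0.10 with no call (adjusted p of 0.72 and 0.73), and Myc, a driver of growth genes, went from 59.2 to 53.9 CPM without a call (adjusted p = 0.16). The member that rose was Btg2, an antiproliferative gene, at 0.77. The list had 18 falls and 2 rises when 2 h replicates 1 and 2 were left out. It had 13 falls and 2 rises with a term for the macrophage marker level, and 16 falls without 2 h replicate 3.

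**Figure D4:**
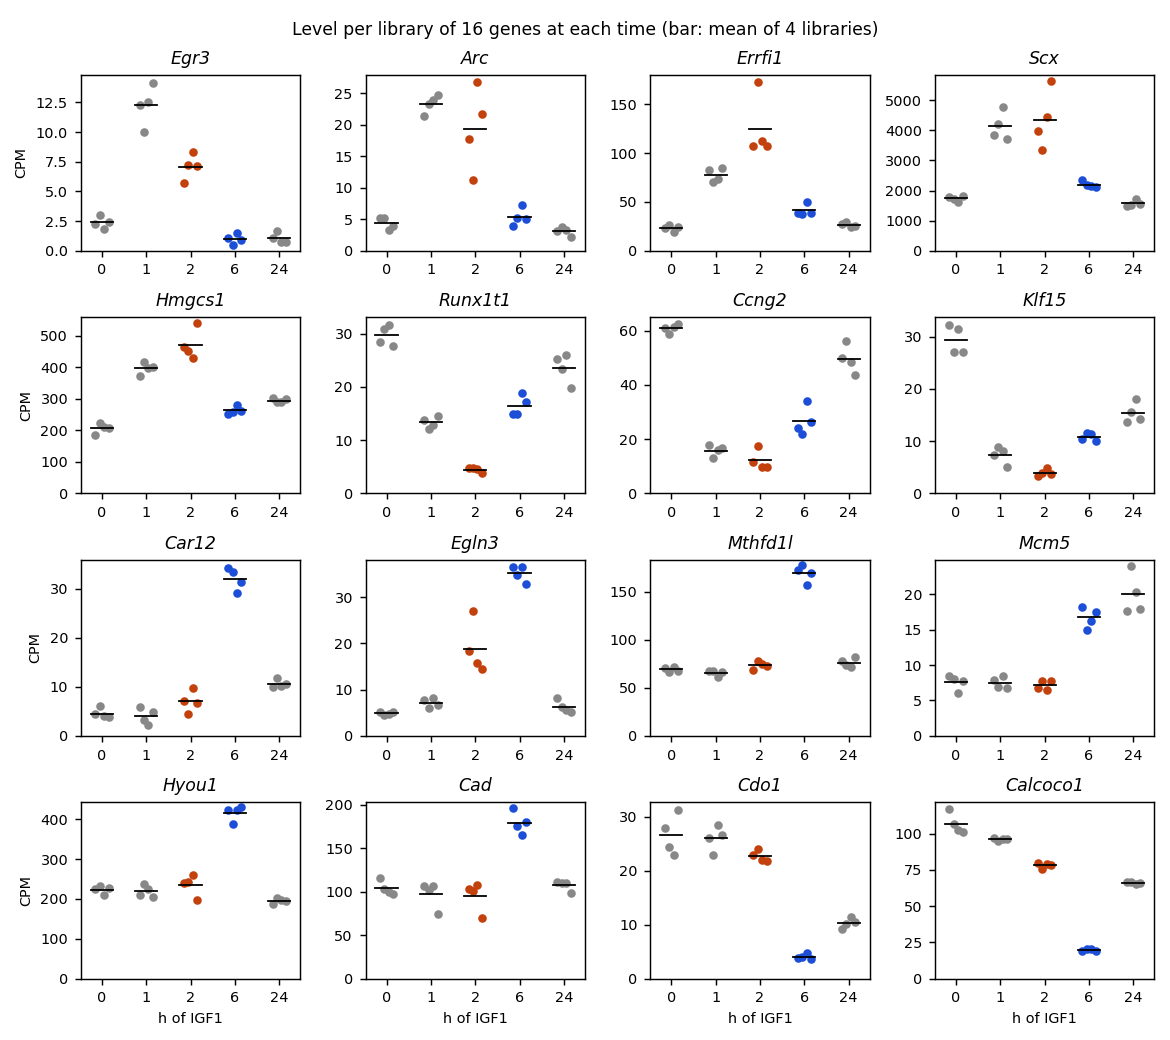
CPM of 16 genes in each library at 0, 1, 2, 6 and 24 h, with the mean of 4 libraries as a bar; 2 h is orange and 6 h blue. Egr3, Arc, Errfi1, Scx and Hmgcs1 fell from 2 h to 6 h, Runx1t1, Ccng2 and Klf15 rose from a low point at 2 h, and Car12, Mthfd1l, Mcm5, Hyou1 and Cad rose while Cdo1 and Calcoco1 fell.

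Inducible brakes on receptor and ERK signalling fell too. Of 16 ERK feedback regulators tested, 8 fell (50%, against 13.7% of all genes), 1 rose and the median was -0.37. Errfi1, which inhibits receptors of the EGF family, stood at 107.6, 172.8, 112.6 and 107.4 CPM at 2 h and at 38.9, 38.0, 50.3 and 38.3 CPM at 6 h. All 6 h libraries were below all 2 h libraries, with a step of -1.60 ± 0.14 (adjusted p = 5.87e-08), and 6 h remained 0.81 log2 units above 0 h. Spry4, a Sprouty inhibitor of RAS to ERK signalling, went from a mean of 25.8 ± 1.28 to 15.2 ± 0.403 CPM (SD, n = 4; step -0.77 ± 0.11), and Phlda1, an early target of the pathway, from 10.4 ± 0.638 to 4.87 ± 0.499 CPM (SD, n = 4; step -1.08 ± 0.13). Dusp4, a phosphatase of nuclear ERK, had a step of -1.69 ± 0.38 that was -0.99 without 2 h replicate 2, the library that held it at 17.3 CPM against 3.10 to 6.22 in the other 2 h libraries. With a term for the macrophage marker level the call of Dusp4 was lost (-0.74), and 5 members of the list fell.

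Ligands of growth factor receptors followed the same course. Of 18 tested ligands of the EGF, FGF, PDGF and VEGF families, 9 fell and 2 rose, with a median of -0.44. The shares were 50% and 11.1%, against 13.7% and 13.6% of all genes. Hbegf, an EGF receptor ligand, went from 152, 190, 168 and 170 CPM at 2 h to 85.9, 78.9, 88.5 and 78.8 CPM at 6 h (step -1.03 ± 0.084) and remained 1.09 above 0 h. Fgf18, a ligand of FGF receptors, went from 4.50, 7.34, 3.22 and 4.59 CPM to 0.345, 0.872, 0.376 and 0.630 CPM, the largest fall in the list at -3.15 ± 0.30, and to 1.98 log2 units below 0 h. Fgf7, a ligand made by mesenchymal cells, differs from both in that it had not changed before the step: its means were 36.2, 37.9 and 37.3 CPM at 0, 1 and 2 h and 16.8 CPM at 6 h (step -1.15 ± 0.096). The members that rose were Fgf21 and Pdgfc.

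Chemokines and NF-kB targets were among the lists with the largest share of falls: 12 of 19 tested members fell and 1 rose, with a median of -0.59. Ccl2, which draws monocytes, stood at 253, 264, 255 and 348 CPM at 2 h and at 114, 128, 122 and 130 CPM at 6 h, with no overlap and a step of -1.18 ± 0.097. Cxcl1, which draws neutrophils and carries the NF-kB site printed above, went from 6.98, 10.3, 8.81 and 9.29 to 3.06, 3.55, 2.85 and 3.52 CPM (step -1.44 ± 0.18). Il11, a cytokine of the IL-6 family, had 15.3 CPM in 2 h replicate 2 and 2.77 to 3.79 CPM in the other 2 h libraries, and its step of -1.62 ± 0.40 was -0.67 without that library. Its call was lost with the macrophage term (-0.46) and with only the 8 libraries of 2 h and 6 h. The single riser was Vcam1, an adhesion molecule, at 0.34. Macrophage markers were highest in 2 h replicates 1 and 2; without those libraries 10 of 21 tested members of the list fell and 2 rose, and the part of macrophages was not tested. With a term for the macrophage marker level, 9 of 19 fell.

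With all libraries, cholesterol synthesis fell more uniformly than any other list shown in the plot of called members. Of 26 tested genes of cholesterol synthesis and uptake, 21 fell and none rose, with a median of -0.49; 18 of the 26 had risen at 1 h. Hmgcs1, which makes HMG-CoA, went from 465, 451, 430 and 541 CPM at 2 h to 252, 258, 281 and 263 CPM at 6 h (step -0.84 ± 0.067, adjusted p = 4.17e-10). It remained 0.35 log2 units above 0 h at 6 h. Insig1, which retains the sterol sensor in the endoplasmic reticulum, went from 281, 256, 304 and 290 to 131, 120, 132 and 126 CPM, the largest fall of the list at -1.15 ± 0.063, and to 0.40 log2 units below 0 h. Neither gene had overlapping libraries. The members without a call were Tm7sf2, Nsdhl, Ebp, Dhcr7 and Scap, with steps of -0.17 to 0.04. With 2 h replicates 1 and 2 left out, 20 members fell, and 17 fell without 2 h replicate 4. Of the exonic bases of Hmgcs1, 12.1% overlap a gene on the other strand.

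Fatty acid genes did not follow as a group, with 5 falls and 2 rises among 16 tested and a median of -0.02. The shares were 31.25% and 12.5%, against 13.7% and 13.6% of all genes. Fasn, the fatty acid synthase, stood at 620.1, 638, 646 and 384 CPM at 2 h and at 404, 360, 328 and 381 CPM at 6 h (step -0.64 ± 0.12), so that 2 h replicate 4 overlapped the 6 h libraries. Acss2, which makes acetyl-CoA from acetate, went the other way, from 16.1, 17.7, 13.8 and 15.9 to 22.8, 22.5, 23.1 and 23.7 CPM (step 0.54 ± 0.096). The cholesterol and fatty acid branches thus had different counts, and that difference was not tested.

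**Figure D5:**
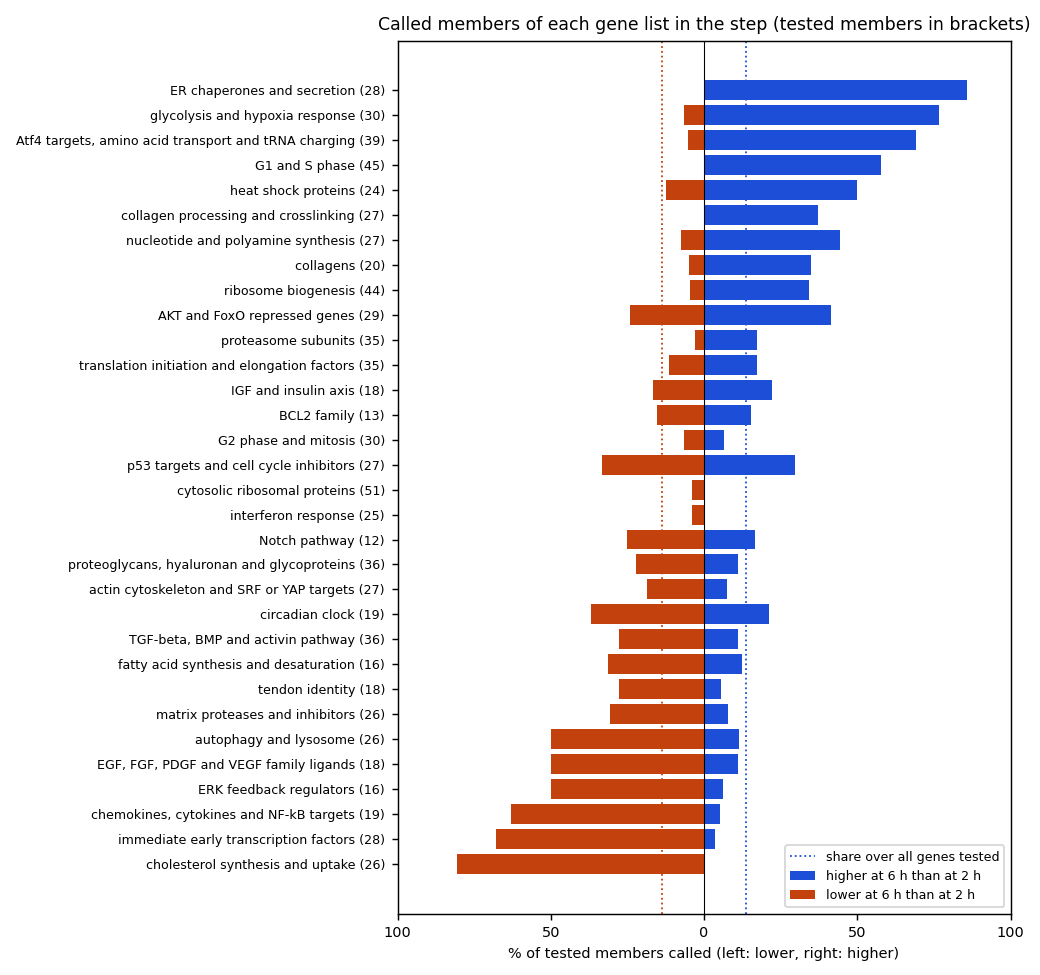
Percent of the tested members of each gene list called lower (left, orange) or higher (right, blue) at 6 h than at 2 h, with the share over all tested genes as dotted lines (13.7% and 13.6%). Endoplasmic reticulum chaperones, glycolysis, Atf4 targets and G1 and S phase genes lie mostly to the right, and cholesterol, immediate early and chemokine genes to the left.

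Scx, the basic helix-loop-helix factor that marks tendon cells, was itself an early riser whose rise ended. Its levels were 3975, 3356, 4442 and 5642 CPM at 2 h and 2341, 2172, 2163 and 2100.2 CPM at 6 h, against 1736 CPM at 0 h. No 6 h library reached the lowest 2 h library, and the step was -0.99 ± 0.11 (adjusted p = 6.38e-07). Mkx, a homeobox factor of tendon, moved opposite: it had fallen from 227.0 CPM at 0 h to 127, 99.3, 122 and 139 CPM at 2 h and rose to 160, 176, 152 and 151 CPM at 6 h (step 0.39 ± 0.075). Tnmd was not called (step 0.12 ± 0.17, adjusted p = 0.66), and its sign turned without 2 h replicate 2 (-0.01). In the tendon list of 18 tested genes, 5 fell (27.8%, against 13.7% of all genes) and 1 rose (5.56%, against 13.6%). Those that fell were Egr2, Scx, Angptl7, Prelp and Thbs4.

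Other early risers that ended were spread over several pathways. Notch1, a receptor whose cleavage releases a transcriptional activator, had 36.9, 40.6, 39.6 and 14.2 CPM at 2 h and 14.01, 11.6, 12.2 and 9.34 CPM at 6 h (step -1.48 ± 0.25). The low library was 2 h replicate 4, which barely cleared the highest 6 h library. Jag1, a Notch ligand, moved opposite with a rise of 0.65 ± 0.15 after an early fall. Bhlhe40, a repressor of the circadian clock, went from 227, 315, 225 and 211 to 127, 129, 128 and 132 CPM (step -0.92 ± 0.086). In the clock list 7 of 19 tested genes fell, among them Per2 at -1.14 ± 0.12, and 4 rose, among them the activators Arntl at 0.46 ± 0.083 and Npas2 at 1.17 ± 0.27. The shares were 36.8% and 21.1%, against 13.7% and 13.6% of all genes. The rise of Npas2 was 1.77 when 2 h replicates 1 and 2 were left out.

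Some early risers overshot. Dio3, the enzyme that inactivates thyroid hormone, had a modest early rise (0.34) and stood at 123, 143, 123 and 139 CPM at 2 h. At 6 h it stood at 36.0, 34.3, 32.7 and 27.2 CPM, below the 0 h mean of 85.8 CPM, with a step of -2.02 ± 0.088 and a further fall to 14.8 CPM at 24 h. Cyp26b1, which degrades retinoic acid, in contrast came back to its starting level, from 24.9 ± 8.03 CPM at 2 h to 7.08 ± 1.16 CPM at 6 h (SD, n = 4), beside 6.5 CPM at 0 h.

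Genes listed as lowered when AKT keeps FoxO factors out of the nucleus moved both ways in the step. Of 29 tested genes on this AKT and FoxO list, 16 had fallen at 1 h, 12 rose in the step and 7 fell, with a median step of 0.13. Klf15, a metabolic transcription factor, stood at 3.30, 3.82, 4.89 and 3.73 CPM at 2 h and at 10.4, 11.6, 11.4 and 10.1 CPM at 6 h. The groups did not overlap and the step was 1.47 ± 0.15 (adjusted p = 2.28e-08), yet 6 h was still 1.44 log2 units below 0 h. Ccng2, an unconventional cyclin that restrains the cell cycle, went from 11.5, 17.4, 9.73 and 9.81 to 24.1, 22.0, 33.9 and 26.3 CPM (step 1.13 ± 0.16). Bbc3, the death-promoting BCL2 family member PUMA whose FoxO site is shown above, went from 3.49, 4.23, 4.09 and 3.61 to 9.02, 7.74, 9.30 and 6.93 CPM (step 1.10 ± 0.13). Both remained below 0 h, by -1.19 and -1.05. By 24 h Ccng2 had a mean of 49.6 CPM, against 60.8 CPM at 0 h, and Bbc3 one of 16.6 CPM, against 17.1 CPM.

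The adaptors of the receptor recovered in part. Irs2 had 4.83, 6.29, 5.35 and 2.93 CPM at 2 h and 9.07, 8.55, 10.8 and 7.24 CPM at 6 h (step 0.87 ± 0.16), against 37.9 CPM at 0 h, and so kept most of its early loss. Irs1 rose by 0.74 ± 0.24 (adjusted p = 0.0321), a value of 0.48 without 2 h replicate 4, where it was at 11.5 CPM against 34.01 to 43.8 CPM in the other 2 h libraries. Its call held there but was lost without 2 h replicate 2 and without 6 h replicate 1, 3 or 4. Igf1r, the receptor, fell further instead, from 145, 155, 164 and 118 to 116, 105, 110 and 104 CPM (step -0.42 ± 0.084), where 2 h replicate 4 came within 2 CPM of the highest 6 h library. It had no early call and was 0.82 log2 units below 0 h at 6 h. Pappa, a protease that frees IGF1 from its binding proteins, fell from 28.1, 37.6, 19.2 and 11.4 to 11.1, 11.2, 9.57 and 8.66 CPM, with a step of -1.26 ± 0.25 that was -0.59 without 2 h replicates 1 and 2.

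Further early falls that ended were found among other genes. Trp53inp1, a stress gene of the p53 and FoxO networks, went from 33.7, 28.5, 31.4 and 26.3 to 64.0, 59.4, 79.6 and 73.0 CPM (step 1.20 ± 0.093). Cdkn1b, the cyclin kinase inhibitor p27, went from 37.0 ± 1.75 to 53.9 ± 1.79 CPM (SD, n = 4; step 0.54 ± 0.065), against 74.6 CPM at 0 h. Runx1t1, a transcriptional corepressor, had the largest rise of the class, from 4.69, 4.68, 4.55 and 3.84 to 14.9, 14.9, 18.8 and 17.2 CPM (step 1.89 ± 0.11). Slitrk6, a membrane protein of neurons and sensory tissue, followed with 1.72 ± 0.14. In these 4 genes every 6 h library was above every 2 h library. Among the 27 tested p53 targets and cell cycle inhibitors, 8 rose and 9 fell, the latter including Cdkn1a and Cdkn1c.

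Members of the AKT and FoxO list that fell differed in their early course. They include Igf1r, described above, which had no early call. Pdk4, a kinase that blocks pyruvate dehydrogenase, continued down from 10.1, 6.24, 9.73 and 6.77 to 4.19, 4.07, 5.75 and 3.2 CPM (step -0.93 ± 0.16) and reached 1.94 log2 units below 0 h. Errfi1 and Zfp36l2 had been early risers. The list is thus divided, and its members without a call include Foxo1 (0.02), Ddit4 (-0.11) and Sod2 (-0.12).

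Falls that deepened in the step included autophagy genes. Of 26 tested autophagy and lysosome genes, 13 fell and 3 rose (1 without 2 h replicate 1, 6 h replicate 1 or 6 h replicate 4), with a median of -0.16. Gabarapl1 and Map1lc3b, ubiquitin-like proteins of the autophagosome membrane, were early falls that continued: Gabarapl1 went from 106, 118, 102 and 104 to 61.6, 60.3, 73.8 and 66.8 CPM (step -0.71 ± 0.065) and Map1lc3b had a step of -0.57 ± 0.067. Calcoco1, which is related to autophagy receptors, went from 79.7, 75.4, 79.2 and 78.4 to 18.8, 20.4, 20.6 and 19.0 CPM. Its step of -1.99 ± 0.060 (adjusted p = 4.95e-19) had the smallest error of the large falls, and at 24 h the mean was 66.1 CPM again. Ypel3, a growth suppressor, was the early fall that continued with a step of -1.49 ± 0.10, and Wnt16, a Wnt ligand, had one of -0.98 ± 0.089. Tcp11l2 and Nipal3, first called lower at 2 h, had steps of -1.67 ± 0.13 and -1.91 ± 0.16. Gabarapl1, Map1lc3b, Calcoco1, Ypel3, Wnt16, Tcp11l2 and Nipal3 all rose from 6 h to 24 h, by 0.54 to 2.31 log2 units, a comparison that shares the 6 h libraries with the step.

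Glycolysis and genes of the hypoxia response had the largest median rise of the lists, and for several the rise had begun before 2 h. Of 30 tested members, 23 rose and 2 fell, with a median step of 0.57; 8 had risen at 1 h. Without 2 h replicates 1 and 2 there were again 23 rises. Egln3, an oxygen-sensing hydroxylase that is itself induced by HIF, went from 18.4, 27.0, 15.8 and 14.4 CPM at 2 h to 36.4, 34.7, 36.5 and 32.9 CPM at 6 h (step 0.89 ± 0.14), against 4.87 CPM at 0 h. Slc16a3, the lactate exporter MCT4 whose hypoxia elements are printed above, went from 180.2, 229, 182 and 187 to 412, 398, 395 and 365 CPM (step 1.01 ± 0.084). Both were early rises that continued, with no overlap. They had returned to 6.35 and 81.1 CPM by 24 h.

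Others of the list moved mainly within the step. Car12, a membrane carbonic anhydrase, stood at 7.18, 4.53, 9.73 and 6.77 CPM at 2 h and at 34.3, 33.3, 29.2 and 31.3 CPM at 6 h, beside 4.57 CPM at 0 h. Its step of 2.19 ± 0.21 (adjusted p = 6.69e-08) was the largest rise among the named genes. Bnip3, a mitophagy receptor with the palindromic element shown above, went from 50.1, 57.6, 38.2 and 42.5 to 100.1, 102, 104 and 106 CPM (step 1.13 ± 0.099). Pdk1, Pfkl, Ldha and Pgk1, enzymes or regulators of glucose use, rose by 0.96, 0.91, 0.79 and 0.73. The list has exceptions: the glucose transporter Slc2a1 (0.17), the hexokinase Hk2 (-0.06), Hif1a (0.08) and Vegfa (-0.08) were not called, and the members that fell were Pfkfb4 (-1.10) and Ndrg1 (-0.22). Outside the list, the early rises that continued also held Higd1a, a mitochondrial protein induced by hypoxia (1.04 ± 0.083), Apln, a peptide hormone (0.73 ± 0.18), Spon2, a matrix protein (0.80 ± 0.11), and Ccne1, the cyclin of the G1 to S transition (0.72 ± 0.14).

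Genes of DNA replication began to rise in the step. Of 45 tested G1 and S phase genes, 26 rose and none fell, with a median of 0.40, while their median differences from 0 h had been -0.02 at 1 h and 0.07 at 2 h. Mcm5, a subunit of the replicative helicase, stood at 6.70, 7.80, 6.45 and 7.75 CPM at 2 h, close to 7.58 CPM at 0 h, and at 18.2, 15.01, 16.2 and 17.5 CPM at 6 h (step 1.22 ± 0.12). Mcm3, another subunit, went from 11.9 ± 1.22 to 26.2 ± 2.94 CPM (SD, n = 4; step 1.14 ± 0.10). Cdc6, which loads the helicase and has the E2F site shown above, went from 2.30, 2.26, 1.78 and 1.09 to 4.98, 4.65, 5.97 and 6.14 CPM (step 1.54 ± 0.26). These 3 genes had no overlapping libraries. Hells, a chromatin remodeller with an E2F site, rose by 1.31 ± 0.16, Uhrf1, which maintains DNA methylation, by 1.16 ± 0.13, Dtl, which directs the removal of the licensing factor Cdt1, by 1.65 ± 0.16, and Ung, which removes uracil from DNA, by 1.40 ± 0.18. Chaf1a, a histone chaperone subunit, rose by 1.07 ± 0.16, but 52.5% of its exonic bases overlap Ubxn6 on the other strand. Leaving out 2 h replicates 1 and 2 gave 24 rises, and a term for the macrophage marker level gave 19, with no falls in either.

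Mitotic genes did not move with them. Of 30 tested genes of G2 phase and mitosis, 2 rose (Ttk and Cdk1; 1 without 2 h replicate 1 or 3 or 6 h replicate 1, 2 or 3) and 2 fell (Cenpa and Ccnb2), with a median of 0.08. Ccnb2, a mitotic cyclin, went from 3.49, 4.68, 4.95 and 4.93 CPM to 2.81, 2.97, 2.47 and 2.73 CPM (step -0.71 ± 0.17), before a mean of 22.9 CPM at 24 h. Mki67, a proliferation marker, went from 14.3 to 15.7 CPM without a call (adjusted p = 0.61), and Top2a, a topoisomerase, from 22.9 to 26.8 CPM (adjusted p = 0.23).

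Atf4 targets and genes of amino acid supply rose in the step. Of 39 tested Atf4 targets, amino acid transporters and tRNA charging enzymes, 27 rose and 2 fell (Cebpb and Nupr1; 1 fell without 2 h replicate 3 or 4 or 6 h replicate 1, 3 or 4), with a median of 0.32; 8 had fallen at 1 h. Mthfd1l, a mitochondrial one-carbon enzyme outside the list, stood at 69.0, 78.1, 75.2 and 72.3 CPM at 2 h and 173, 178, 157 and 170 CPM at 6 h (step 1.20 ± 0.060, adjusted p = 5.87e-14), after 69.5 CPM at 0 h and 65.7 CPM at 1 h. Psat1, of serine synthesis, went from 231, 242, 246 and 279 to 392, 399, 362 and 397 CPM (step 0.64 ± 0.071). Slc1a4, a transporter of neutral amino acids with the Atf4 element shown above, went from 72.6, 69.9, 80.6 and 76.8 to 123, 123, 102 and 122 CPM (step 0.65 ± 0.074). Trib3, a pseudokinase that binds AKT, had been an early fall and rose by 0.70 ± 0.098. The mRNA of Atf4 itself stayed at 415 and 417 CPM (step 0.01, adjusted p = 0.96). With 2 h replicates 1 and 2 left out, 22 members rose and 3 fell. With a term for the macrophage marker level, 20 rose and 3 fell.

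Nucleotide synthesis rose too, with 12 of 27 tested genes higher and 2 lower and a median of 0.19. Cad, which carries the first steps of pyrimidine synthesis, went from 104, 100.4, 108 and 69.9 to 197, 176, 165 and 180 CPM (step 0.91 ± 0.12), and Gart, of purine synthesis, from 55.6 ± 4.04 to 79.5 ± 4.88 CPM (SD, n = 4; step 0.52 ± 0.070). Of the exonic bases of Gart, 19.7% overlap a gene on the other strand. Ribosome biogenesis had 15 rises and 2 falls among 44 tested genes, median 0.13, and for this list the rise was already under way, with 19 members higher at 1 h. Dkc1, which modifies ribosomal RNA, went from 37.9 ± 2.41 to 56.7 ± 5.68 CPM (SD, n = 4; step 0.58 ± 0.084), while Rrs1, a ribosome assembly factor, was an early rise that ended (-0.32 ± 0.075).

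With all libraries and no added term, chaperones of the endoplasmic reticulum had the largest share of rises of any list. Of 28 tested genes of this list of chaperones and secretion, 24 rose and none fell, with a median of 0.31, after medians of -0.03 at 1 h and 0.00 at 2 h. Hyou1, a large chaperone of the lumen, stood at 239, 243, 260.2 and 198 CPM at 2 h and at 424, 388, 423 and 431 CPM at 6 h (step 0.82 ± 0.069, adjusted p = 8.48e-10), and it was back at 195.3 CPM at 24 h. Creld2, an ER stress-induced protein, went from 53.2, 52.3, 61.0 and 76.0 to 109, 98.4, 111 and 103 CPM (step 0.80 ± 0.087). Neither gene overlapped. Hspa5, the chaperone BiP, rose by 0.51. The members not called were Xbp1 (0.07), Atf6 (0.05), Syvn1 (0.15) and Sec61b (0.21), of which Xbp1 and Atf6 are sensors or factors of the stress response. Without 2 h replicates 1 and 2 there were 18 rises and no falls, and with a term for the macrophage marker level 16 rises and no falls.

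Matrix genes rose in part. Of 20 tested collagen chains, 7 rose and 1 fell (4 rose without 2 h replicate 4 and 4 without 6 h replicate 1). The shares with all libraries were 35% and 5%, against 13.6% and 13.7% of all genes. Col6a3, a chain of the microfibrillar type VI collagen, stood at 655, 627, 642 and 362 CPM at 2 h and at 1214, 1189, 847 and 1169 CPM at 6 h (step 0.95 ± 0.15). Even the highest 2 h library was below the lowest 6 h library. Col6a1 and Col6a2 rose by 0.33 ± 0.071 and 0.38 ± 0.072. Col3a1, a fibrillar collagen of young matrix, had 2178, 2914, 2142 and 1883 CPM at 2 h and 2840, 2663, 2969 and 2864 CPM at 6 h, which overlap through 2 h replicate 2, and a step of 0.31 ± 0.082. Col1a1, the most abundant of them, was not called: it had 22686, 17545, 28575 and 20304 CPM and then 28221, 25774, 24649 and 26657 CPM (step 0.24 ± 0.11, adjusted p = 0.11).

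Enzymes that finish collagen rose in 10 of 27 tested cases with no fall, median 0.11. They include Plod2, a lysyl hydroxylase (136, 171, 126 and 123 CPM, then 210.02, 211, 215 and 223 CPM; step 0.63 ± 0.079), and Loxl2, a crosslinking amine oxidase (346.1 ± 13.6 to 478 ± 18.8 CPM, SD, n = 4; step 0.47 ± 0.051). That list had 7 rises and 3 falls when 2 h replicates 1 and 2 were left out. Vcan, a large hyaluronan-binding proteoglycan, was flat until 2 h (112.7, 112.4 and 113.5 CPM at 0, 1 and 2 h) and had 238, 216, 197 and 223 CPM at 6 h (step 0.94 ± 0.13). Has2, a hyaluronan synthase, went from 6.12, 10.4, 7.43 and 6.08 to 14.6, 12.6, 15.1 and 12.4 CPM (step 0.86 ± 0.16). Eln, the elastin gene, fell, from 34.6, 25.3, 50.4 and 37.6 to 21.7, 19.6, 20.9 and 22.1 CPM (step -0.81 ± 0.16).

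The secondary falls named here were chosen by size and belong to no common list. Cdo1, which degrades cysteine, stood at 22.96, 24.1, 22.1 and 21.7 CPM at 2 h and at 3.90, 4.07, 4.73 and 3.62 CPM at 6 h, after 26.7 CPM at 0 h. The step of -2.48 ± 0.11 (adjusted p = 9.45e-15) had no overlap between the groups. Lgr5, a receptor for R-spondins, went from 18.5, 15.2, 16.5 and 12.3 to 5.38, 5.18, 6.51 and 5.56 CPM (step -1.47 ± 0.15). Rasl11a, a small GTPase, fell by 2.12 ± 0.27 on the log2 scale, and Fgl2, a secreted fibrinogen-like protein, by 1.68 ± 0.17. Bcas3 and Hsd17b11, a cytoskeletal adaptor and a steroid and lipid droplet enzyme, fell from 28.0 ± 3.81 to 10.5 ± 1.24 CPM and from 40.4 ± 2.45 to 16.7 ± 1.35 CPM (SD, n = 4). The TGF-beta, BMP and activin list had 10 falls and 4 rises among 36 tested genes (2 rises without 6 h replicate 1), among the falls Fst, an activin antagonist, with 40.9, 36.3, 45.9 and 47.7 CPM at 2 h and 26.8, 22.6, 24.5 and 27.3 CPM at 6 h (step -0.75 ± 0.087). The list's shares were 27.8% lower and 11.1% higher, against 13.7% and 13.6% of all genes.

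A group of genes dipped at 2 h and came back. Prkca, a protein kinase C, had 77.8 CPM at 0 h, then 64.5, 62.1, 65.6 and 46.0 CPM at 2 h and 141, 142, 127 and 138 CPM at 6 h (step 1.20 ± 0.079), so it passed its starting level. Unc5c, a netrin receptor, rose by 1.26 ± 0.13. Cyr61, a matricellular target of YAP, went from 209.7, 202, 288 and 265 to 390.01, 354, 534 and 395 CPM (step 0.80 ± 0.15) and stayed below its 0 h mean of 519.5 CPM. Id3, an inhibitor of basic helix-loop-helix factors, rose by 0.70 ± 0.13.

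Markers of macrophages fell in the step, and this fall followed particular libraries. Of the 16 tested macrophage markers, 12 fell and none rose, with a median of -1.09. Their summed level ranged from 446.5 to 1257 CPM at 2 h and from 309.7 to 496.4 CPM at 6 h, and none was at 0 in every library. Itgax, an integrin of myeloid cells, had 32.4, 67.0, 7.31 and 6.83 CPM at 2 h and 4.88, 8.26, 7.26 and 4.15 CPM at 6 h, so that 2 h replicates 3 and 4 lay within the 6 h range. Its step of -2.22 ± 0.63 (adjusted p = 0.0161) was -1.36 without 2 h replicate 2, and it was -0.20 with 2 h replicates 1 and 2 left out. With both libraries left out 1 of 17 tested markers fell, none fell without 2 h replicate 2 alone, and 5, 7 and 2 fell without 6 h replicates 1, 3 and 4.

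Genes outside the marker list had the same libraries high. Atp6v0d2, a proton pump subunit of phagocytes and osteoclasts, had 44.0, 96.1, 11.9 and 13.8 CPM at 2 h (step -2.33 ± 0.59, and -0.63 without 2 h replicates 1 and 2). Saa3, an acute phase protein, had 26.7, 99.7, 14.5 and 20.3 CPM (step -1.98, and -0.76 without both). Mmp10, a stromelysin, had 14.3, 43.8, 2.19 and 4.70 CPM, and its step of -2.14 ± 0.68 turned to 0.11 without both. The part of other cells in these values was not tested. By contrast, Egr3, Calcoco1, Cdo1 and Mthfd1l kept their calls in each of the 28 alternatives, those without these libraries included.

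Calls were few, or rested on which libraries were used, in other groups. Over all tested genes, 13.6% rose and 13.7% fell. Of 25 tested interferon response genes, 1 fell and none rose, with a median of 0.28. Of 51 cytosolic ribosomal proteins, 2 fell (Rpl37 and Rpl4) and none rose, with a median of -0.12, but 12 fell without 2 h replicate 2, 6 without 2 h replicate 1, and none without 2 h replicate 4 or 6 h replicate 4. With 2 h replicates 1 and 2 left out together, 31 fell. Of 35 proteasome subunits, 6 rose (17.1%, near the share over all genes) and 1 fell, and 22 rose without 2 h replicate 4. Among 35 translation factors 6 rose (17.1%) and 4 fell (11.4%), near the shares over all genes, and 14 rose without 2 h replicate 4. The falls include Eef2, an elongation factor, with 2989, 2793, 3242 and 3000 CPM at 2 h and 2356, 2279, 2261 and 2255 CPM at 6 h (step -0.39 ± 0.055).

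The other lists had calls in both directions or few calls. Rises made up 15.4% of the BCL2 family, 16.7% of the Notch list and 22.2% of the IGF list, against 13.6% of all genes. Falls made up 15.4%, 25% and 16.7% of them, against 13.7%. The 18 tested genes of the IGF and insulin axis had 4 rises and 3 falls (5 falls without 2 h replicate 2, 2 rises without 6 h replicate 1, 3 or 4), among the rises Grb10, an adaptor that restrains the receptor (0.33). The Notch list had 2 rises and 3 falls among 12 tested genes (3 and 5 without 2 h replicate 4, 1 rise without 2 h replicate 1 or 3 or 6 h replicate 3 or 4). Heat shock proteins had 12 rises (50%, against 13.6% of all genes) and 3 falls (12.5%, against 13.7%) among 24. Their median was 0.14, and 11 of the 24 had risen at 1 h. Matrix proteases and their inhibitors had 2 rises and 8 falls among 26, with 3 falls when 2 h replicate 2, 6 h replicate 1 or 6 h replicate 2 was left out and 4 without 6 h replicate 4. Proteoglycans, hyaluronan and related matrix genes had 4 rises and 8 falls among 36 (5 falls without 6 h replicate 4). Actin cytoskeleton and SRF or YAP targets had 2 rises and 5 falls among 27 (3 falls without 2 h replicate 3 or 6 h replicate 4), and the BCL2 family had 2 and 2 among 13 (4 rises without 2 h replicate 4). Of the remaining marker lists, 1 of 9 Schwann cell, 3 of 6 endothelial, 1 of 7 pericyte, 1 of 5 skeletal muscle and 1 of 5 chondrocyte and osteoblast markers fell, none rose, and no lymphocyte, adipocyte or keratinocyte marker was called.

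The authors' deposited table of results lists 12207 genes for this comparison, of which 1954 were higher and 1978 lower at an adjusted p under 0.05. Of its genes, 12203 were also tested here, 3810 were called in the same direction by both and none in opposite directions.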

How the data were processed

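Levels of mRNA were measured by RNA sequencing in 20 libraries. The authors deposited raw read counts per gene (whole numbers) and a table of log2 fold changes with adjusted p-values, per the file headers. FastQC, STAR, edgeR and mm10 are listed, with no role, in the submitters' processing notes. The counting tool and its strand setting: not given in the sources used here. Counts were tested with edgeR 4.0.16 in R 4.3.3: filterByExpr over 5 groups kept 14420 genes, which hold 99.9% of the counts. TMM scaling was used, and all 20 libraries entered 1 robust quasi-likelihood fit without covariates. The SE is the log2 fold change divided by the square root of F. P-values were two-sided and adjusted by Benjamini-Hochberg over all tested genes. Total counts per library ranged from 13734425 to 22687173. The script was tested on simulated data.

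Replicates of a time differed beyond sampling noise, so each counts as 1. Replicate numbers were not stated to pair libraries. Members and lists (41 lists, 982 entries, 925 tested, 9 of them for other cell types) were chosen with earlier results of these data known. Named genes came from the 12 largest rises and falls without overlap whose higher group averaged 5 CPM or more, the 6 largest of each class, up to 4 called members per list and direction, and a fixed set (Igf1r, Irs2, Klf10, Fosl1, Scx, Mkx, Tnmd, Col1a1, Col3a1); some were left out. A few list members were named after their values were seen, and the hypoxia element and the exonic length check were added then. Gene positions and lengths come from GENCODE M21, and 15 of 120 genes considered share exonic bases with a gene on the opposite strand. Alternatives were RLE scaling, 2 other filters, DESeq2 1.42.0, a replicate block, only the 8 libraries, leaving out 2 h replicates 1 and 2, a macrophage marker term and leaving out each library.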

Additional observations from a re-analysis of the deposited data

Results flagged for a closer look

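In 262 groups of 4 libraries, 1 library stood far from the other 3 in 19, where chance flags about 1 in 20 groups. Most were at 2 h. In 2 h replicate 4, Notch1 was at 14.2 CPM (others 36.9 to 40.6), Col6a3 at 361.7 (626.6 to 654.9), Fasn at 384 (620.1 to 646), Rrp12 at 28.6 (39.8 to 40.6), Wnt16 at 59.4 (72.3 to 73.2) and Runx1t1 at 3.84 (4.55 to 4.69), while Ccl2 was at 348 (253 to 264) and Map1lc3b at 176 (139 to 141). In 2 h replicate 2, Errfi1 was at 173 CPM (107 to 113), Bhlhe40 at 315 (211 to 227), Slc16a3 at 229 (180.2 to 187), Il11 at 15.3 (2.77 to 3.79) and Saa3 at 99.7 (14.5 to 26.7).

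At 6 h, replicate 3 stood apart in Errfi1 with 50.3 CPM (38.0 to 38.9), Psat1 with 361.8 (392 to 399), Slc1a4 with 102 (122.0 to 123) and Col6a3 with 847 (1169 to 1214). Replicate 1 stood apart in Gart with 86.8 CPM (76.6 to 77.9). The Schwann cell markers had a mean log2 CPM of 1.55 in 6 h replicate 2 and 0.12 to 0.28 in the others.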

How the results depend on the processing

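Of 120 genes followed through the alternatives, 118 were called, and 103 of these kept call and direction in all 28 alternatives. Some list members named in the text, such as Btg2 and Vcam1, were not among the 120. No gene called in the step was called in the opposite direction in any alternative. Reversed signs were those of Tnmd (-0.083 without 2 h replicates 1 and 2; leaving out 1 library gave -0.013 without 2 h replicate 2 to 0.32 without 2 h replicate 4), Mmp10 (0.11 without 2 h replicates 1 and 2 and 0.11 with the macrophage term) and Itgax (0.076 with that term). With only the 8 libraries, 1307 genes were higher, 1262 lower and 223 at least 2-fold lower. In that setting 252 rises first seen at 2 h ended and 309 falls did. It has fewer samples to estimate the spread, and the 2 h libraries also varied more than those of 6 h. Across genes, the log2 deviation of a library from the others of its time had an interquartile range of 0.24 to 0.5 at 2 h and 0.15 to 0.17 at 6 h. What lowered the counts was not tested. Without 2 h replicates 1 and 2, 226 genes were at least 2-fold lower and 61 early falls continued. With the macrophage term 197 genes were at least 2-fold lower, 3274 differed at 2 h against 0 h, and 174 rises and 218 falls first seen at 2 h ended; the cause was not tested.

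Leaving out 1 library gave 1649 to 2301 higher, 1508 to 2254 lower, 99 to 135 at least 2-fold higher and 250 to 461 at least 2-fold lower. It gave 1158 to 2156 genes at 1 h, 4828 to 5698 at 2 h and 5117 to 6634 at 6 h against 0 h. Early rises that ended ranged from 297 to 460 and continued from 46 to 166, early falls that ended from 189 to 302 and continued from 23 to 83. Secondary rises ranged from 563 to 850 and falls from 474 to 691, and rises and falls first seen at 2 h that ended from 296 to 588 and from 389 to 536. With the replicate block 1971 genes rose and 1886 fell, and 3763 of 3944 calls were kept. Among the 120 genes followed, it ended the call of Mmp10. Same-numbered 2 h and 6 h libraries did not deviate together (correlations 0.011, 0.126, -0.045 and -0.051, 1 of 4 best with its own number), so the numbers were not taken to pair them. Some genes of a few CPM had larger standard errors (Cdc6, 0.26), and others, such as Phlda1 and Bbc3, did not. Errors were larger still for genes whose 2 h libraries differed widely, such as Mmp10, Itgax and Atp6v0d2.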
